A study of Mus musculus with 12 samples.

Results

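Chromatin accessibility was compared between CC and CB cells of Pbrm1+/+ mice at every autosomal peak of a mouse germinal center B cell ATAC-seq data set, 67159 of 68689 peaks in all. The members were chosen by the labels alone. They are the 3 WT CC libraries and the 3 WT CB libraries, paired by replicate number, and all peaks on chromosomes 1 to 19. The 1530 peaks on X were left out. The strain was C57BL/6, the tissue spleen and the age 8 to 10 weeks. The 6 libraries of Pbrm1-/- mice (HOMO CC and HOMO CB, 3 each) were of the same strain, tissue and age. They served to estimate the spread and to set the WT values beside a set that shares no library. The labels name the populations CC and CB without spelling the letters out, and they give neither the sorting markers nor the immunization. They also do not say that each replicate number is a separate mouse, so p-values measure the spread between these libraries. That spread was estimated over both genotypes and mostly shared across peaks. Column names carry the word Pbrm1AID for both genotypes, and no source used here says what it means or how the Pbrm1 allele was made.

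In this field CC stands for centrocyte and CB for centroblast, and the names are used here only as background. Germinal centers are the sites in lymphoid tissue where antigen-activated B cells mutate their antibody genes and are selected. Centroblasts divide and mutate in the dark zone, under factors such as Foxo1 and with the chemokine receptor Cxcr4 at the surface. Centrocytes gather in the light zone, bind antigen through the B cell receptor, receive CD40 signals from helper T cells and then re-enter the dark zone, leave as memory or plasma cells, or die. ATAC-seq uses the Tn5 transposase to cut and tag open DNA, so a higher count in a peak means more accessible chromatin, here a peak of 501 bp. In such bulk libraries, fewer open cells and less opening per cell cannot be told apart.

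Promoter sequences show what lay under changed peaks at gene starts. Both directions are represented by 5 RefSeq promoters (GRCm38.p6, 250 bases before to 50 after the start) that overlap such a peak. They were chosen after their values were seen, as genes with a known role in B cells whose promoter holds a searched motif, and the capitals mark that motif. Rcan1, which encodes an inhibitor of the phosphatase calcineurin, has an AP-1 match (TGANTCA) at chr16:92400029-92400328, minus strand. Fcrl5, the gene of an Fc receptor-like protein of B cells, has one at chr3:87435532-87435831, plus strand. Tnfsf13b, which encodes the B cell survival factor BAFF, has one at chr8:10006383-10006682, plus strand. Tnfrsf13c, the gene of the BAFF receptor, has an E-box (CAGCTG) at chr15:82224331-82224630, minus strand. Vpreb3, the gene of a protein that associates with antibody chains inside the cell, has part of the octamer (ATGCAAA, here on the opposite strand) at chr10:75948050-75948349, plus strand.
Rcan1: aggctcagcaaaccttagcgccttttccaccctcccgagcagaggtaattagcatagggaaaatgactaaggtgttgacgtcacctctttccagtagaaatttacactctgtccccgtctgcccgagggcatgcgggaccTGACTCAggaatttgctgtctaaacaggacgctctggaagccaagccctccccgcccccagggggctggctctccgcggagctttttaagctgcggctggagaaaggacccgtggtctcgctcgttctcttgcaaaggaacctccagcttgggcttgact
Fcrl5: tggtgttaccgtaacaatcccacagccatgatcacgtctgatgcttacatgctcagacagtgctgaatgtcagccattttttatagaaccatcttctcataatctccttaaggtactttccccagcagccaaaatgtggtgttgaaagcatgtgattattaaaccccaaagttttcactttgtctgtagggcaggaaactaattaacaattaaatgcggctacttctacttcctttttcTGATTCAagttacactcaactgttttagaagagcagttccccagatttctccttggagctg
Tnfsf13b: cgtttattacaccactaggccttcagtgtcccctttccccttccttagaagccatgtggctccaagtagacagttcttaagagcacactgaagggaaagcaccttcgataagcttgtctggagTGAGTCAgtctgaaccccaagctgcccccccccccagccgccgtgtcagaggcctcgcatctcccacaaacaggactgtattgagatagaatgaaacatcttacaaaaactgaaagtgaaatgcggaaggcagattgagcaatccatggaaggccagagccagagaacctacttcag
Tnfrsf13c: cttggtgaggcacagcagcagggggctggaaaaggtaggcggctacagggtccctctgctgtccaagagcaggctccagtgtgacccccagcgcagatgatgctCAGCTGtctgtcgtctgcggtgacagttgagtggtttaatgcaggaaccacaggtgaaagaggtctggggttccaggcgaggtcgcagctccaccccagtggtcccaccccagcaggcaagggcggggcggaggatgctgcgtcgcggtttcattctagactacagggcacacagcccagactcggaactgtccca
Vpreb3: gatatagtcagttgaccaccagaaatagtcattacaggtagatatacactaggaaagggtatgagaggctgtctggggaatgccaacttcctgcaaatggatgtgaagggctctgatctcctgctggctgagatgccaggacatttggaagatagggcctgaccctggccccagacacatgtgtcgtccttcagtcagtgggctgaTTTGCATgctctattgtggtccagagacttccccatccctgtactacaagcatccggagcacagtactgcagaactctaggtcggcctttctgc

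The WT CC libraries held 12434503, 15981746 and 30178952 counts and the WT CB libraries 20822355, 8826472 and 31595888. The CC library was the shallower in pairs 1 and 3 and the deeper in pair 2. Values are given as CPM, counts scaled to the size of the library and corrected by TMM factors, which equalize libraries on the bulk of their peaks. Those factors were higher in the CC library of each pair (1.04, 1.04 and 0.999 in CC, against 0.984, 0.989 and 0.954 in CB). Peaks at the starts of genes that define germinal center B cells were open in every WT library. The levels were 18.2 to 26.9 CPM in CC and 18.5 to 24.5 CPM in CB for Bcl6, the repressor that directs the germinal center program, and 34.5 to 44.7 CPM in CC and 36.9 to 49.6 CPM in CB for S1pr2, the receptor that holds cells in the follicle.

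A large share of the accessible genome differed between the populations. With edgeR's quasi-likelihood F test, two-sided, with a term for each pair and a Benjamini-Hochberg adjusted p under 0.05, 14997 peaks passed (22.3%). Of these, 7043 (10.5% of all peaks tested) were higher in CC, at 3614 genes, and 7954 (11.8%) were lower in CC, at 4267 genes. A total of 1285 genes had both kinds, where a gene is the nearest protein-coding gene within 50000 bp of a peak. Nearest position does not say which gene a peak acts on.

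With TMM scaling, the gains that passed were larger than the losses that passed and lay at weaker peaks. Their place at weak peaks depended on the scaling, as the loess shares by level given further on show. The higher peaks had a median log2 fold change of 0.75 and median levels of 5.86 CPM in CC and 3.33 CPM in CB. The lower ones had a median of -0.36 and levels of 18 CPM in CC and 23.4 CPM in CB. More than 2-fold changes made up 27.4% of the higher peaks (1933) and 4.15% of the lower ones (330). The median change over all tested peaks was -0.03, and a typical (median) standard error on the log2 scale was 0.15. Weaker peaks had larger standard errors, as 0.27 for the Lyn peak and 0.06 for the Mzb1 peak described below (mean log2 CPM 1.40 and 6.10). A larger change is needed to pass at weaker peaks. The part of this in the sizes above was not tested.

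Since the test ran on the differences within pairs, values of the pairs at the called peaks only describe them. The median change of the higher peaks was 0.74, 0.82 and 0.64 in pairs 1, 2 and 3, and that of the lower peaks -0.40, -0.39 and -0.30. Without regard to pairs, all 3 CC libraries lay above all 3 CB libraries at 5339 of the higher peaks (75.8%), and below them at 5328 of the lower peaks (67.0%). Over all tested peaks such a separation occurred at 12.2% upward and 12.7% downward. The called peaks were chosen on these same libraries, so their higher rate of separation also only describes them. The number of calls rests on the pairing. Without a term for pairs 3688 peaks passed, 2275 higher and 1413 lower in CC, all of them passing in the same direction in the paired fit. Leaving out pair 1, 2 or 3 gave 8409, 9881 and 9772 peaks, and DESeq2 with the pair term gave 8220. Of the peaks taken by the naming rule and described below, those of Rel, Maff, Fosb, Junb, Egr1, Ccnd2, Ccnd3, Bcl2l11, Il21r, Slamf7, Irf4 and Prdm1, the Syk gain and the lesser of the Bach2, Cd70 and Max pairs did not pass without the pair term. Nor did those of Cd5, Cd2, Gata3 and Cebpb. Counts for genes fell likewise, as to 15 higher and 4 lower for Bach2.

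The direction of change followed the level of a peak. Among peaks with a mean of at most 2 on the log2 CPM scale, 15.7% were higher and 2.78% lower in CC. Among those between 5 and 6, 1.08% were higher and 27.8% lower. The median change was 0.23, 0.27 and 0.16 in the 3 pairs for the weak peaks, and -0.11, -0.12 and -0.13 for the strong ones. With cyclic loess scaling, which removes trends of change with level between libraries, 5992 peaks were higher and 5114 lower (54.0% of calls higher, against 47.0% with TMM). The weak peaks then had 7.41% higher and 5.84% lower, and the strong ones 5.63% higher and 7.06% lower. The TMM factors given above moved with the trend, and their part in it was not tested. Loess values are given below beside small losses at strong peaks.

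**Figure D1:**
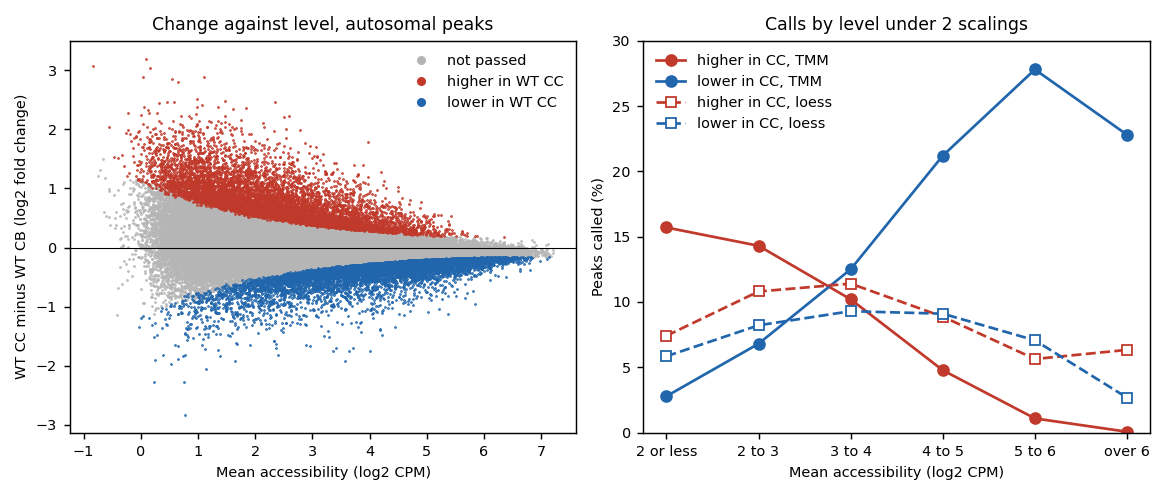
Left, log2 fold change of WT CC over WT CB against mean log2 CPM for each of 67159 autosomal peaks, coloured by the paired test. Right, percent of peaks passing in each direction by level bin with TMM scaling (filled circles) and cyclic loess scaling (open squares); with TMM the lower share reaches 27.8% between 5 and 6, and with loess it is 7.06%.

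Position relative to genes went with the same split. Peaks within 1000 bp of a gene start numbered 13192, of which 2.72% were higher and 15.4% lower in CC. Their median change was -0.10. Under loess the shares were 4.03% and 3.77%, so the excess of losses at starts depended on the scaling. Peaks at other gene ends had 5.04% higher and 13.3% lower (of 4743). Peaks inside genes had 13.7% higher and 11% lower (of 28839), and intergenic peaks 12.3% and 10.3% (of 20385). With loess these became 11% and 8.85% inside genes, and 10.0% and 8.73% between genes. Under loess the share that passed was thus larger away from starts in both directions, and under TMM for gains alone. The share of higher peaks grew with distance, being 2.44% within 100 bp of a start, 7.37% between 1000 and 5000 bp and 14.5% between 50000 and 200000 bp. Peaks that passed and lay next to each other within 2000 bp changed in the same direction in 95.9% of 2078 cases. That share was 77.3% at 2000 to 10000 bp, 63.9% at 10000 to 50000 bp and 54.1% beyond 200000 bp. By chromosome the higher share ran between 8.71% (chromosome 8) and 13.4% (chromosome 16).

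Of the 10 gains named for their small p, 8 lay inside genes. The first was inside Fnbp1, which encodes a protein that bends membranes during endocytosis (chr2:31036588-31037088). It had 19.7, 21.0 and 27.7 CPM in CC libraries 1, 2 and 3, against 5.90, 4.92 and 8.62 CPM in CB libraries. The naming rule required groups that do not overlap at these 10 gains and at the 10 losses that follow, so their separation is no result. Each CC value was more than 3 times that of its pair. The log2 fold change was 1.78 (SE 0.12, adjusted p = 1.43e-19). Inside Traf2, an adaptor that binds CD40 and other receptors of the TNF family, a peak had 16.4, 18.8 and 22.4 CPM in CC, against 6.73, 5.61 and 9.12 CPM in CB (1.39, SE 0.13, adjusted p = 1.21e-13). Blk, a Src-family kinase of B cells, had an intragenic peak at 9.70, 13.5 and 14.2 CPM in CC, against 3.32, 3.66 and 5.14 CPM in CB (1.58, SE 0.15).

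The others of the first 10 gains were peaks at Afap1l2, Adamts13, Nup214, Acot12, Vps13d, Zswim6 and Nup85, with log2 fold changes of 1.03 (Nup85) to 2.01 (Acot12). Nup214 and Nup85 encode parts of the nuclear pore. The Adamts13 peak was the single one of the 10 at a gene start (16.9, 12.6 and 10.8 CPM in CC, against 4.83, 4.58 and 3.25 CPM in CB).

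The peak of smallest p among losses lay 5649 bp from Tef, a circadian transcription factor gene of the PAR bZIP family (chr15:81832262-81832762). It had 6.68, 7.76 and 6.60 CPM in CC, against 26.1, 22.4 and 22.3 CPM in CB. The CC values lay close to each other (log2 fold change -1.75, SE 0.11, adjusted p = 1.16e-19). Inside Cbfa2t3, the gene of the corepressor ETO2, a peak had 20.3, 23.3 and 25.0 CPM in CC, against 51.9, 47.9 and 50.6 CPM in CB (-1.13, SE 0.08). A peak 27634 bp from Mtf2, which encodes a partner of the Polycomb complex PRC2, had 18.7, 21.6 and 24.0 CPM in CC, against 43.8, 49.5 and 42.2 CPM in CB (-1.05, SE 0.08).

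Several of these losses were neighbours on a chromosome. Peaks assigned to Slc36a4 (-1.09) and inside Deup1 (-1.75) lay on chromosome 9, starting at 15670158 and 15574681, and Smco4, described below, is also on that chromosome. Peaks inside Cplx2 (-1.69) and near Thoc3 (-0.95) lay on chromosome 13, starting at 54322293 and 54425121. The remaining losses were at Zfat (-1.40), Thbs4 (-1.48) and Pqlc3 (-0.86). All 20 of these peaks kept their direction and stayed under the threshold in every alternative run.

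**Figure D2:**
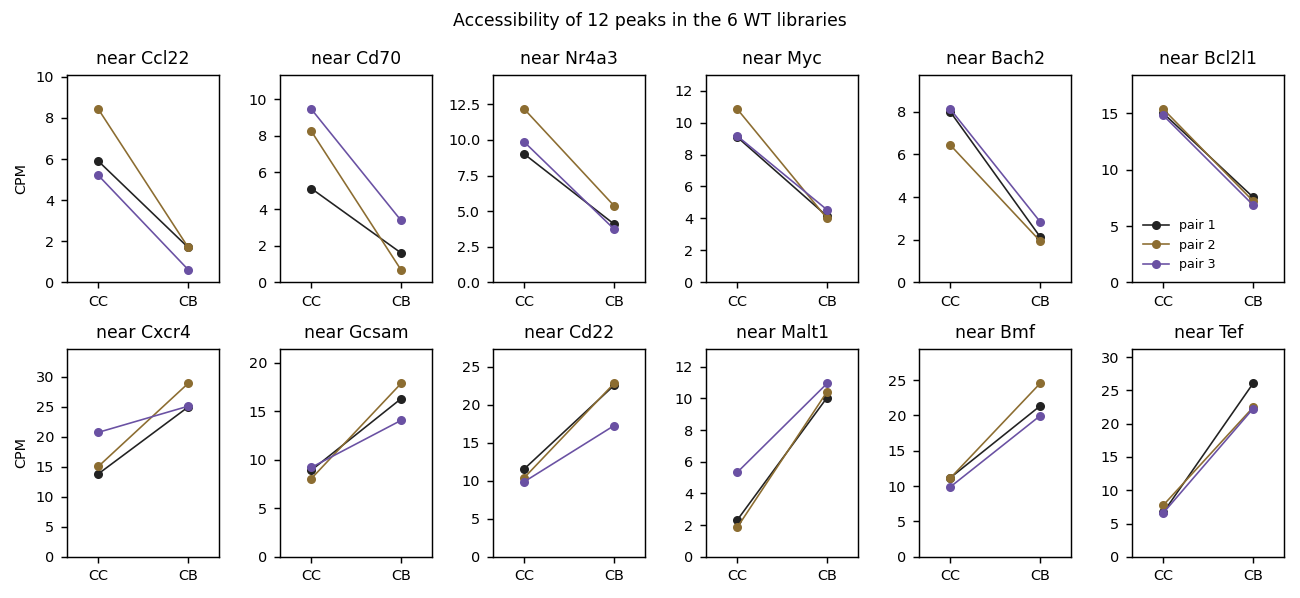
Accessibility (CPM, linear axes starting at 0) of 12 peaks in the 6 WT libraries, CC at left and CB at right, with a line joining the libraries of each pair. All lines of the peaks near Ccl22, Cd70, Nr4a3, Myc, Bach2 and Bcl2l1 run downward to CB, and all those near Cxcr4, Gcsam, Cd22, Malt1, Bmf and Tef run upward.

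Genes of the light zone and of the CD40 response had 41 of 235 assigned peaks higher in CC (17.4%) and 31 lower (13.2%). Over all autosomal peaks these shares were 10.5% and 11.8%. Under loess the list had 47 higher and 16 lower. The median change of the list was 0.01, and leaving out a pair left 24 to 26 higher and 16 to 22 lower. The largest named gain lay 5746 bp from Ccl22, which encodes a chemokine that attracts helper T cells (chr8:94739688-94740188). It had 5.90, 8.43 and 5.21 CPM in CC, against 1.71, 1.72 and 0.63 CPM in CB. The lowest CC library was above 3 times the highest CB library (2.35, SE 0.25, adjusted p = 1.54e-11).

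Bhlhe40, the gene of a transcription factor induced by activation signals, had 10 of its 22 peaks higher and 0 lower, with a median change of 0.27 (5 to 7 higher with 1 pair left out). Its peak 44939 bp away stood at 15.6, 18.5 and 17.8 CPM in CC, against 8.68, 8.48 and 8.32 CPM in CB (1.02, SE 0.12). Around Cd83, a surface marker of light zone cells, 9 of 23 peaks were higher and 1 lower (12 and 1 under loess, 6 and 1 without pair 1). Its end peak, 28 bp from the gene, did not pass (43.9, 45.4 and 57.8 CPM in CC, against 50.2, 45.6 and 57.3 CPM in CB, adjusted p = 0.572).

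Other light zone genes had losses. A peak inside Cd40, the receptor for T cell help, had 4.50, 4.88 and 7.13 CPM in CC, against 14.5, 14.9 and 12.1 CPM in CB (-1.25, SE 0.14, adjusted p = 3.03e-10). Cd86, a costimulatory ligand used to sort light zone cells, had 4 of 21 peaks higher and 5 lower (2 and 2 under loess or without pair 1, 3 and 3 without pair 2, and 1 and 3 without pair 3). One inside the gene had 7.14, 6.86 and 12.1 CPM in CC, against 17.0, 15.6 and 17.9 CPM in CB (-0.92, SE 0.13). Icam1, an adhesion ligand, had an intragenic peak that fell by 0.83 on the log2 scale. The labels CC and CB thus went with opposite changes around Cd83 and Cxcr4, while peaks of Cd86 and of Foxo1 (4 higher and 4 lower of 29, but 1 and 2 without pair 1 and 2 and 3 without pair 3) were split.

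NF-kB genes, whose products carry the CD40 signal to the nucleus, had 10 of 117 peaks higher (8.55%) and 11 lower (9.40%), with a median of -0.02. Under loess these were 12 and 6, and with a pair left out 6 to 8 and 5 to 10. Rel, the gene of the c-Rel subunit, had 4 of 9 peaks higher and 0 lower (2 higher without pair 1). An intragenic Rel peak had 7.92, 6.92 and 10.6 CPM in CC, against 4.98, 3.78 and 6.23 CPM in CB (0.76, SE 0.15). A peak 4061 bp from Nfkb1, the gene of the p50 subunit, had 29.0, 27.6 and 24.1 CPM in CC, against 41.2, 44.2 and 32.6 CPM in CB (-0.53, SE 0.08, and -0.42 under loess). Gene start peaks of the list passed in neither direction (0 of 19).

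Genes of AP-1, Egr and Nr4a factors, which respond early to receptor signals, had 18 of 144 peaks higher (12.5%) and 15 lower (10.4%). Under loess 28 were higher and 1 lower, so the losses of this list depended on scaling. Leaving out a pair gave 13 higher and 5 to 8 lower. The largest named gain was 32915 bp from Nr4a3, the gene of an orphan nuclear receptor. It had 9, 12.2 and 9.85 CPM in CC, against 4.10, 5.38 and 3.75 CPM in CB (1.25, SE 0.15, adjusted p = 2.32e-09). Gains near Maff (0.66) and at the start of Fosl2 (0.59), both genes of basic leucine zipper proteins, were smaller. Losses lay near Fosb (-0.31) and Egr1 (-0.30) and at an end of Junb (-0.25), and the groups overlapped for Fosb and Junb. Under loess they were -0.19, -0.19 and -0.12, and those of Junb and Egr1 no longer passed (adjusted p = 0.123 and 0.076).

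Myc, the growth regulator switched on in selected centrocytes, gained accessibility at a pair of distal sites. The first, 3710 bp from the gene (chr15:61981381-61981881), had 9.08, 10.8 and 9.15 CPM in CC, against 4.15, 4.01 and 4.54 CPM in CB. Each CC library was more than 2-fold above its pair (1.15, SE 0.16, adjusted p = 5.06e-08). The other, 9395 bp from the gene, changed by 0.73. The strongest peak at an end of Myc did not pass (29.4, 29.3 and 27.5 CPM in CC, against 28.8, 22.9 and 26.9 CPM in CB). Over the list of Myc and growth genes, 7 of 97 peaks were higher and 12 lower (10 and 5 under loess, and 4 or 5 and 4 to 10 with a pair left out). The strongest end peak of Ccnd2, a D cyclin gene, was higher in CC (27.5, 29.4 and 30.9 CPM, against 18.6, 20.3 and 26.0 CPM in CB, change 0.42). Peaks near Max, which encodes the partner of Myc, were lower (-0.97 and -0.65).

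Receptors and ligands of T cell help had 18 of 132 peaks in each direction (13.6% each), and 20 higher and 10 lower under loess. Without 1 pair they were 11 to 13 and 11 to 18. Near Cd70, the gene of a TNF-family ligand, a peak had 5.12, 8.25 and 9.45 CPM in CC, against 1.61, 0.69 and 3.38 CPM in CB (1.85, SE 0.21, adjusted p = 3.16e-10). A second Cd70 peak had 16.7, 19.4 and 23.4 CPM in CC, against 8.10, 8.02 and 14.1 CPM in CB (0.95). Tnfrsf14, which encodes the HVEM receptor, had a site 4495 bp away at 7.30, 10.6 and 10.6 CPM in CC, against 3.22, 2.98 and 4.94 CPM in CB (1.29, SE 0.17). All 3 of these sites had separate groups. Losses lay inside Il21r, the interleukin 21 receptor gene (-0.62), inside Pdcd1lg2, the gene of the PD-1 ligand PD-L2 (-0.91), and at the Tnfrsf13c promoter printed above (55.8, 55.1 and 64.3 CPM in CC, against 69.0, 79.7 and 74.2 CPM in CB, -0.34).

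Genes of the Bcl2 family, which decide between survival and apoptosis, had both gains and losses. The family had 12 of 103 peaks higher (11.7%) and 17 lower (16.5%), and 12 and 11 under loess (8 to 11 and 10 to 13 without 1 pair). A peak inside Bcl2l1, the gene of the survival protein Bcl-xL, had 15.0, 15.3 and 14.8 CPM in CC, against 7.56, 7.22 and 6.87 CPM in CB (1.06, SE 0.13, adjusted p = 9.58e-10). The libraries of each group lay close together. Bcl2 itself had 6 of 22 peaks higher and 0 lower.

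Among the death-promoting members, a peak inside Bmf had 11.2, 11.1 and 9.88 CPM in CC, against 21.3, 24.5 and 19.9 CPM in CB (-1.02, SE 0.10, adjusted p = 5.94e-12). The Bmf start peak changed by -0.36 (-0.23 under loess). Bcl2l11, the gene of Bim, had 6 of 11 peaks lower and 0 higher (5 lower under loess), with a named intragenic peak at 63.7, 64.5 and 65.9 CPM in CC, against 87.2, 78.3 and 81.5 CPM in CB (-0.35, and -0.21 under loess). Bcl2l1 also had 3 lower peaks beside its 3 higher ones (1 lower without pair 2).

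Dark zone genes did not move as a group. They had 82 of 383 peaks higher in CC (21.4%) and 60 lower (15.7%), with 77 and 44 under loess. Leaving out a pair gave 54 to 68 higher and 38 to 43 lower. Of the 82 gains, 32 belonged to Bach2 and 20 to Foxp1, against 6 and 9 of the 60 losses. With TMM scaling the rest of the list had more losses than gains. Under loess the rest had nearly as many of each. Around Cxcr4, 10 of 24 peaks were lower and 1 higher (10 and 0 under loess). One 4790 bp from that gene had 31.8, 35.6 and 33.7 CPM in CC, against 45.8, 54.7 and 44.7 CPM in CB (-0.51, SE 0.07, adjusted p = 1.09e-07, and -0.39 under loess). Another, 969 bp from it, had 13.8, 15.0 and 20.7 CPM in CC, against 24.9, 28.9 and 25.1 CPM in CB (-0.63, SE 0.10). The groups were apart at both, while the Cxcr4 start peak did not pass (38.6, 36.5 and 38.1 CPM in CC, against 33.9, 36.3 and 38.1 CPM in CB).

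Gcsam, which encodes a signalling adaptor of germinal center B cells, had 6 of 8 peaks lower (3 without pair 2). One 1695 bp away had 8.93, 8.06 and 9.22 CPM in CC, against 16.3, 17.9 and 14.1 CPM in CB (-0.84, SE 0.12). Ccnd3, the D cyclin of dark zone division, had 6 of 18 peaks lower and 0 higher, but 2 lower under loess and 1 without pair 1. An end peak of Pafah1b3, the gene of a lipid-cleaving enzyme subunit, had 23.4, 27.7 and 23.2 CPM in CC, against 38.2, 48.2 and 35.4 CPM in CB (-0.70, SE 0.08). In contrast, Ezh2, the gene of the Polycomb methyltransferase, had 6 of 12 peaks higher and 0 lower (5 and 0 under loess).

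Bach2 held more gains than any other gene. Its product is a repressor that keeps B cells from plasma cell fate and is linked to memory. Of 55 peaks assigned to it, 32 were higher (58.2%) and 6 lower, with a median change of 0.59 and a range of -0.51 to 1.68. The largest, inside the gene (chr4:32405921-32406421), had 7.99, 6.44 and 8.12 CPM in CC, against 2.15, 1.95 and 2.85 CPM in CB (1.68, SE 0.19, adjusted p = 4.24e-10). Another intragenic peak had 13.4, 10.9 and 18.8 CPM in CC, against 5.90, 4.47 and 8.72 CPM in CB (1.16). The 6 losses flanked the upstream end of the gene, and the peak at that end did not pass (38.3, 42.9 and 40.2 CPM in CC, against 41.7, 44.8 and 40.4 CPM in CB). Counts for Bach2 were 28 and 5 under loess, and 19 and 5 without pair 3.

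Lpp had 26 of 52 peaks higher and 3 lower (25 and 2 under loess). It encodes an adhesion-site protein, and its long span lies upstream of Bcl6. Peaks assigned to Bcl6 itself passed in neither direction (0 of 11). The Bcl6 start peak had 18.2, 23.9 and 26.9 CPM in CC, against 18.5, 19.4 and 24.5 CPM in CB (0.13, adjusted p = 0.315). Next in number of gains were Foxp1, a forkhead gene (20 higher and 9 lower of 104), Atxn1 (14 and 0 of 37), Akap13, the gene of a kinase anchor (12 and 3 of 59), and Foxn3 (11 and 1 of 36). With 1 pair left out Atxn1 had 9 or 10 gains and Foxn3 5 to 8, and Akap13 had 6 without pair 1. The 9 losses of Foxp1 became 2 without pair 1 and 6 without pair 2 or 3, and the 3 of Akap13 became 0 or 1.

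The genes with most losses were Nfatc1 and Sorcs2 (14 each, with 1 gain each), Bcl11a (13 of 40), Gse1 (13 of 55), Ppp1r16b (13 of 28) and Smco4 (13 of 17). Nfatc1 encodes a calcium-regulated factor downstream of the B cell receptor, and Bcl11a a zinc finger repressor needed for B cell development. Smco4 had the highest share, 76.5%, with a median of -0.46 and 0 gains, and 12 losses under loess. Nfatc1 and Ppp1r16b had 7 and 5 losses under loess, so their counts rested partly on the scaling. Without pair 1 the losses numbered 8 for Nfatc1, 8 for Sorcs2, 8 for Bcl11a, 7 for Gse1, 6 for Ppp1r16b and 11 for Smco4, and Sorcs2 had 7 without pair 3. Among 4334 genes with at least 5 peaks, 158 had 5 or more gains and 231 had 5 or more losses. Of those, 73 had gains without a loss and 117 losses without a gain, and 83 genes had at least 3 in each direction.

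**Figure D3:**
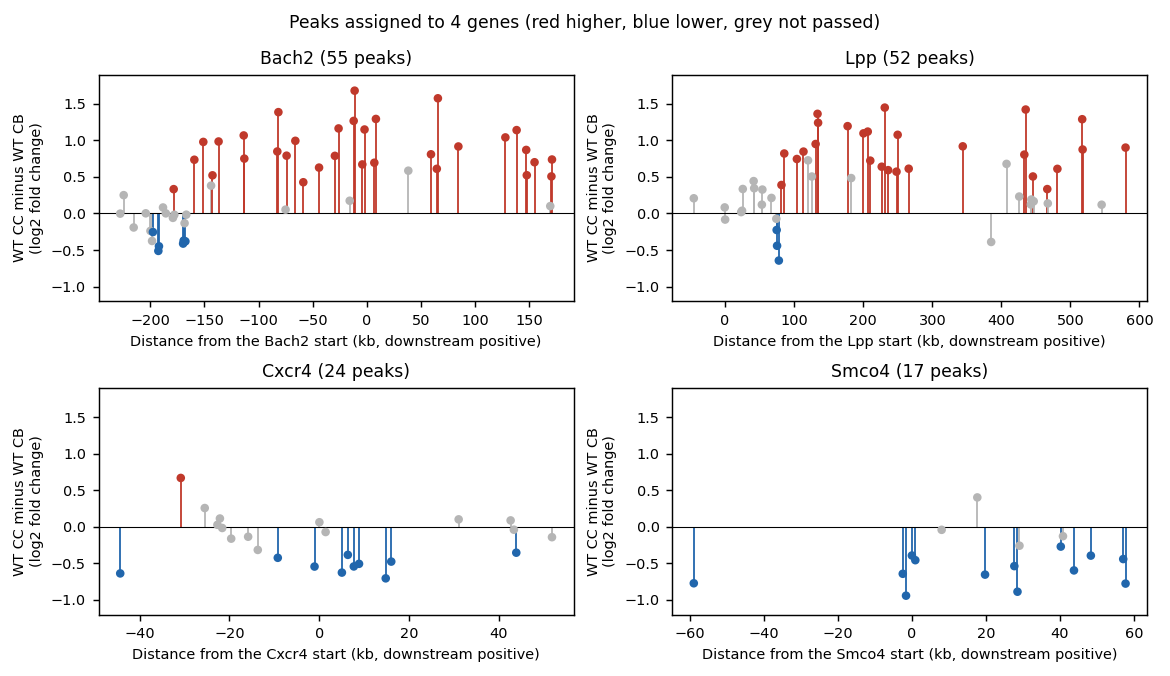
Log2 fold change of WT CC over WT CB for every peak assigned to Bach2, Lpp, Cxcr4 and Smco4, against distance from the RefSeq start in kb (downstream positive; for Bach2 the listed start lies inside the gene); red peaks passed as higher, blue as lower, grey did not pass. Bach2 and Lpp show 32 and 26 higher peaks spread over their spans, and Cxcr4 and Smco4 10 and 13 lower ones.

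Genes of the B cell receptor and its signalling had 87 of 349 peaks lower in CC (24.9%) and 19 higher (5.44%), with a median change of -0.12. All tested peaks had 11.8% lower and 10.5% higher. Under loess the list had 54 lower (15.5%) and 20 higher, against 7.61% and 8.92% over all peaks. Leaving out a pair gave 46 to 72 lower and 13 or 14 higher, and without the pair term 17 were lower and 5 higher. Losses were found at 20 of the list's genes. Cd22, the gene of an inhibitory coreceptor, had a peak 1917 bp away (chr7:30863237-30863737) at 11.6, 10.4 and 9.88 CPM in CC, against 22.5, 22.8 and 17.2 CPM in CB. All CC values were below all CB values (-0.95, SE 0.11, adjusted p = 1.19e-10).

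Malt1 encodes a protease that acts between the receptor and NF-kB. Near it a peak had 2.33, 1.87 and 5.34 CPM in CC, against 10.0, 10.4 and 10.9 CPM in CB (-1.65, SE 0.18). The CC library nearest to CB was library 3. Vav2, an exchange factor gene, had 12 of 36 peaks lower and 0 higher (9 under loess), and Plcg2, the phospholipase gene, 7 of 20 (2 under loess and 1 without pair 1).

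The named gains of the list lay at kinase genes. Inside Syk, the first kinase recruited to the receptor, a peak had 14, 13.3 and 22.6 CPM in CC, against 7.76, 5.50 and 11.6 CPM in CB (0.99, SE 0.12). Inside Lyn, a Src-family kinase gene, another had 3.88, 3.25 and 4.34 CPM in CC, against 1.12, 1.26 and 1.19 CPM in CB (1.73, SE 0.27). Syk had 4 of 23 peaks higher and 2 lower (0 lower without pair 1 or 2).

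Plasma cell genes also had more losses than gains, with 28 of 115 peaks lower (24.3%) and 11 higher (9.57%), and 16 and 9 under loess (12 to 20 and 3 to 8 with a pair left out). The start peaks of Irf4 and Prdm1, the factors that drive plasma cell fate, were lower by small amounts (-0.19 and -0.24) and did not pass under loess (-0.07 and -0.13, adjusted p = 0.485 and 0.229). Inside Mzb1, the gene of an endoplasmic reticulum cochaperone for antibody, a peak had 50.6, 55.2 and 58.0 CPM in CC, against 73.5, 71.6 and 73.3 CPM in CB (-0.41, SE 0.06, and -0.28 under loess). A peak 19578 bp from Xbp1, a factor of the secretory program, had 10.0, 10.4 and 12.3 CPM in CC, against 14.8, 17.1 and 21.1 CPM in CB (-0.70, SE 0.11). The groups were apart at both. Slamf7, a surface receptor gene, had an end peak lower (-0.68) and an intragenic one higher (0.66).

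Memory precursor genes had 46 of 218 peaks higher (21.1%) and 23 lower (10.6%), but 32 of the 46 gains were the Bach2 peaks already described. Leaving out a pair gave 30 to 41 higher and 11 to 21 lower. The others included a site 1423 bp from Ccr6, a chemokine receptor gene of memory precursors, at 15.3, 14.5 and 16.8 CPM in CC, against 7.95, 10.1 and 11.3 CPM in CB (0.67, SE 0.12, adjusted p = 1.41e-05). The start peak of Nt5e, which encodes the ectoenzyme CD73, was lower (42.5, 39.5 and 35.7 CPM in CC, against 55.8, 57.0 and 44.1 CPM in CB, -0.40, and -0.28 under loess).

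Migration receptors had 17 of 206 peaks higher (8.25%) and 39 lower (18.9%), and 22 and 27 under loess (9 or 10 and 22 to 32 with a pair left out). Of the losses, 10 belonged to Cxcr4. Inside S1pr3, a sphingosine phosphate receptor gene, a peak had 6.44, 6.50 and 5.90 CPM in CC, against 14.4, 17.6 and 9.35 CPM in CB (-1.05, SE 0.13). An intragenic S1pr1 peak was also lower (-0.70). Gains lay near Cnr2, the cannabinoid receptor gene (0.92), and near Ccr7, which guides cells to T cell zones (0.57 at 16033 bp), while another Ccr7 site at 8085 bp was lower (-0.51, and -0.42 under loess).

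Transcription factor genes of B cell identity had 38 of 495 peaks higher (7.68%) and 71 lower (14.3%), and 39 and 44 under loess (19 to 28 and 44 to 54 with a pair left out). Inside Pax5, the B cell commitment factor, a peak had 8.15, 7.94 and 9.72 CPM in CC, against 21.6, 19.5 and 15.9 CPM in CB (-1.08, SE 0.12, adjusted p = 7.65e-11). A site 33112 bp from Id3, an inhibitor of E proteins, had 7.68, 8.06 and 11.1 CPM in CC, against 17.3, 17.8 and 18 CPM in CB (-0.95, SE 0.11). Inside Pou2f2, the gene of the octamer factor Oct-2, a strong peak had 27.5, 29.1 and 34.0 CPM in CC, against 45.7, 44.3 and 47.3 CPM in CB (-0.59, SE 0.07, and -0.47 under loess). Single gains lay inside Runx1 (1.17), near Myb (1.17) and inside Ebf1 (1.28), 3 factor genes of early lymphoid cells. Ebf1 had more losses than gains, with 4 of 57 peaks higher and 10 lower (5 and 9 under loess). Runx1 had 6 higher and 2 lower of 21, and Myb 3 and 2 of 17.

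Among PI3K, Akt and Foxo genes 23 of 194 peaks were higher and 18 lower (17 and 12 under loess, and 12 to 16 and 9 to 13 with a pair left out). Inside Akt1, a kinase that holds Foxo factors out of the nucleus, a peak had 12.8, 13.5 and 10.9 CPM in CC, against 27.3, 27.3 and 21.4 CPM in CB (-1.02, SE 0.10, adjusted p = 4.55e-13). A second Akt1 peak changed by -0.91. Peaks at Pik3r5 (1.29), Tsc1 (1.28) and Pik3ca (1.10) were higher, the first being a regulatory subunit gene of PI3K, the second an inhibitor of mTOR signalling and the last a catalytic subunit. A site 48073 bp from Foxo1 was lower (-0.47, and -0.37 under loess), while the Foxo1 start peak had 38.3, 43.5 and 41.0 CPM in CC, against 38.9, 43.4 and 40.2 CPM in CB (0.00, adjusted p = 0.983).

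Genes of mitosis had 13 of 85 peaks higher (15.3%) and 8 lower, and 13 and 1 under loess (11 and 3 to 6 with a pair left out). None of their 32 start peaks was higher. Gains lay inside genes, as at Nusap1, a spindle protein gene (3.26, 4.81 and 7.86 CPM in CC, against 0.68, 0.92 and 1.33 CPM in CB, change 2.45, SE 0.24). Inside Bub1b, the gene of a spindle checkpoint kinase, a peak had 22.6, 24.6 and 25.8 CPM in CC, against 9.51, 12.5 and 13.2 CPM in CB (1.06, SE 0.10). DNA replication genes had 7 of 77 higher and 13 lower (6 and 4 under loess, and 4 to 6 and 1 to 9 with a pair left out). A pair of adjoining peaks inside Pole, the gene of a replicative polymerase, were among the gains (1.48 and 1.80), the first at 12.6, 14 and 12.3 CPM in CC, against 3.85, 4.24 and 5.41 CPM in CB. At Pole and at Nusap1 the lowest CC library exceeded the highest CB library by more than 2-fold.

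Interferon response genes had 2 of 74 peaks higher (2.70%) and 8 lower (10.8%), the losses being 4 to 6 with a pair left out. A pair of sites near Ifitm3, which encodes an antiviral membrane protein, held the losses of smallest p (-1.14 and -1.19). The site 8672 bp away had 12.9, 12.8 and 14.6 CPM in CC, against 31.2, 32.5 and 27.2 CPM in CB (SE 0.09, adjusted p = 3.93e-15). Antigen presentation genes had 6 of 61 peaks higher and 8 lower (8 and 3 under loess, and 2 to 4 and 3 to 7 with a pair left out). BAF and PBAF subunit genes had 15 of 174 higher and 19 lower (12 and 14 under loess, and 5 to 10 and 13 to 21 with a pair left out), among them an intragenic peak of Smarca4, the ATPase gene, at 53.7, 57.2 and 68.8 CPM in CC, against 77.4, 86.6 and 88.3 CPM in CB (-0.48, SE 0.06, and -0.35 under loess).

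**Figure D4:**
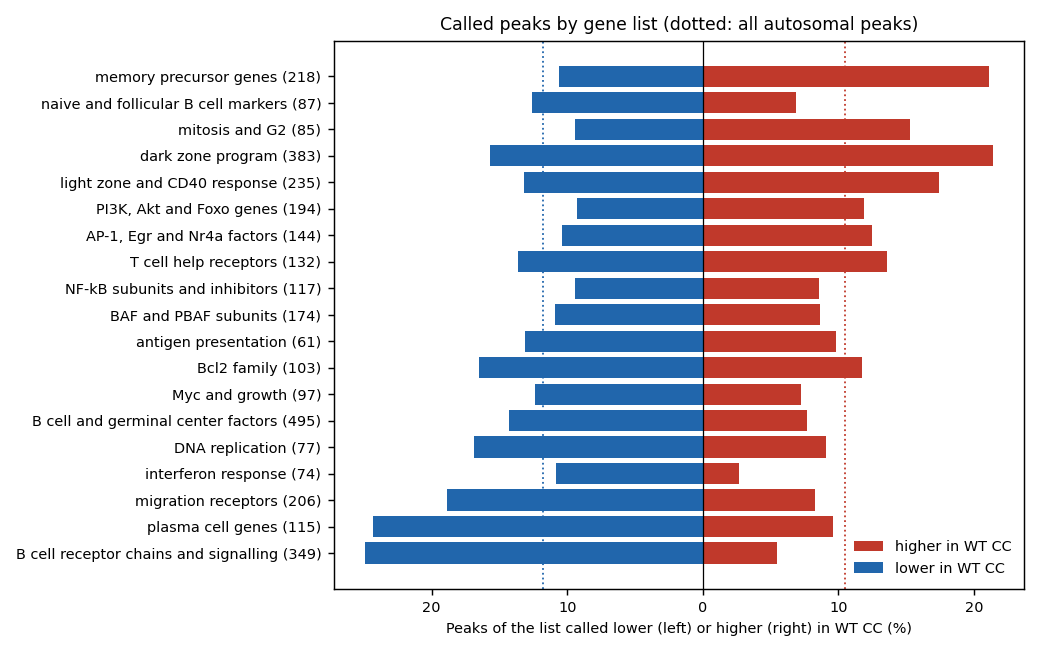
Percent of assigned peaks that passed as lower (left of 0) or higher (right of 0) in WT CC for the 19 gene lists with at least 50 peaks, with the number of peaks in brackets; dotted lines mark all autosomal peaks (11.8% lower, 10.5% higher). The B cell receptor list has 24.9% lower and 5.44% higher. The dark zone and memory lists, which share the 32 gains of Bach2, have 21.4% and 21.1% higher.

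At the starts of key genes accessibility changed little. Among the genes looked up by the strongest peak at the start or an end, Cxcr4, Cd83, Cd86, Foxo1, Bcl6, Myc, S1pr2, Egr1, Nfkbia and Bach2 did not pass. Ccnd2 was higher. Irf4, Prdm1 and Ccnd3 (-0.19) were lower. None of these 3 passed under loess, and each failed with pair 1 left out and with at least 1 other pair left out.

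Promoters with gains and with losses differed in base composition and level. Of 8666 promoters overlapped by a peak over at least 150 bases, 200 lay under a higher and 1538 under a lower peak. The higher ones had a median level of 2.27 log2 CPM and 18 CpG dinucleotides per 300 bases, the lower ones 5.40 and 24.0, and all of them 5.13 and 23.0. With both strands searched, the AP-1 motif TGANTCA was present in 6.50% of the higher (13 of 200), 2.86% of the lower and 3.91% of all these promoters. Over every listed promoter, under a peak or not, it was present in 7.06%, above its share in the higher set. In the higher, the lower and all overlapped promoters, the Ets motif CCGGAAG was present in 4.50%, 24.8% and 20.6%. The NF-Y motif CCAAT was in 23.0%, 43.7% and 39.8%. The GC box GGGCGGG had 45.5%, 57.2% and 53.2%. Shares of CAGCTG (16.5%, 16.1% and 13.9%) and of the octamer part ATGCAAA (3.00%, 3.58% and 3.48%) lay close together. Of the other motifs searched, CACGTG was in 8.00%, 11.1% and 10.9%, TGACGTC in 1.5%, 6.18% and 6.31%, and GTGGGCG, which can overlap the GC box, in 13.5%, 19.3% and 16.5%. TTTGAA was in 10% of the higher, 8.78% of the lower and 10.5% of all. The forkhead, interferon and NF-kB motifs were each in at most 3.5% of any set. The part of level or CpG content, in which the sets also differ, in these shares was not tested.

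At the promoters printed above the values were as follows. Rcan1 had 11, 8.91 and 10.1 CPM in CC, against 3.46, 2.41 and 5.01 CPM in CB (1.41, SE 0.17, adjusted p = 2.37e-09), and its AP-1 match lies at position -110 from the start. Fcrl5 had 6.13, 8.85 and 6.37 CPM in CC, against 2.59, 4.24 and 3.28 CPM in CB (1.07, SE 0.18), with the match at -11. Tnfsf13b had 6.52, 4.63 and 4.21 CPM in CC, against 2.54, 2.18 and 2.35 CPM in CB (1.08, SE 0.22), with the match at -127. Every CC library was above every CB library at these 3. Vpreb3 had 15.8, 15.2 and 12.5 CPM in CC, against 21.1, 25.2 and 18.4 CPM in CB (-0.56, SE 0.10), and Tnfrsf13c is given with the T cell help receptors. Under loess the 5 changes were 1.34, 0.98, 0.93, -0.48 (Vpreb3) and -0.20 (Tnfrsf13c), all still passing.

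Each list of marker genes of other spleen cells had genes with peaks and genes without. T cell genes had peaks at 9 of 16 genes, with summed levels of 164.5 to 174.4 CPM in CC and 160.8 to 163.4 CPM in CB (3 of 16 peaks higher and 2 lower). No peak was assigned to Cd3g, Cd8a, Lck, Icos, Il7r, Cd28 or Trac. Cd3e, Cd3d, Cd4 and Cd8b1 had 1 peak each, and 0 of these passed in either direction. The gains were the 3 peaks of Cd5, and the losses lay at Cd2 and Gata3. Without the pair term the T cell list had 0 peaks higher and 0 lower. The Gata3 loss also did not pass under loess (adjusted p = 0.254). Myeloid genes summed to 441.6 to 468.4 CPM in CC and 421.1 to 451.0 CPM in CB (8 of 36 peaks higher and 4 lower), with peaks at 10 of 14 genes and none at Lyz2, Mpo, Elane or S100a8. An intragenic Csf1r peak, at the gene of a macrophage growth factor receptor, had 14.5, 15.1 and 12.1 CPM in CC, against 6.24, 8.82 and 6.23 CPM in CB (0.99). The 4 myeloid losses lay at Csf3r (-0.90, and -1.01 under loess), Cebpb (-0.30 and -0.45) and Itgam. Under loess those of Cebpb were -0.19 and -0.42, and the first no longer passed. Erythroid genes (5 of 10 with a peak) summed to 169.1 to 178.1 CPM in CC and 181.4 to 187.2 CPM in CB (4 of 13 peaks higher and 3 lower). Natural killer genes (4 of 9) summed to 141.5 to 159.1 CPM in CC and 152.3 to 159.9 CPM in CB (2 of 17 higher and 3 lower). Follicular dendritic and stromal genes (8 of 10) summed to 187.2 to 203.1 CPM in CC and 198.0 to 204.2 CPM in CB (2 of 25 higher and 3 lower). Naive and follicular B cell genes, several of which germinal center cells also use, summed to 1267 to 1368 CPM in CC and 1337 to 1370 CPM in CB (6 of 87 peaks higher and 11 lower). Groups were apart for the summed T cell and erythroid lists, by small amounts. Over all autosomal peaks 10.5% were higher and 11.8% lower. The share of higher peaks was 30.8% for erythroid, 22.2% for myeloid and 18.8% for T cell genes, and 6.9% to 11.8% for the other lists. The share of lower peaks was 23.1% for erythroid and 17.6% for natural killer genes, and 11.1% to 12.6% for the others. With a pair left out 5 to 8 myeloid and 2 to 4 erythroid peaks were higher. The part of other cells in the results was not tested.

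The HOMO libraries gave another look at the same contrast with no library shared, although the spread and the scaling were estimated over all 12. As in WT, TMM factors were higher in the CC library of each HOMO pair. They were 1.052, 1.005 and 0.979 in CC, against 0.994, 0.993 and 0.978 in CB. The part of scaling and level in the shared directions below was not tested. In HOMO mice 15048 peaks passed (22.4%). Of the 14997 peaks that passed in WT, 97.2% changed in the same direction in HOMO, against 76.9% of all autosomal peaks. Both genotypes called 9111 peaks in the same direction, 60.5% of the HOMO calls and 60.8% of the WT calls, and 0 in opposite directions. At Ccl22 the change was 2.10 in HOMO and 2.35 in WT, at Tef -1.89 and -1.75, at Cd22 -0.77 and -0.95, and at the strongest Bach2 peak 1.59 and 1.68.

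The difference of the effects between HOMO and WT passed at 0 peaks with edgeR, with a smallest adjusted p of 0.106. At an unadjusted p under 0.05 it passed at 3701 peaks (5.51%), and at 790 without the pair term, 1339 with DESeq2 and 5078 with limma voom. After adjustment DESeq2 gave 0, limma voom 3 and edgeR with loess scaling 1. The median standard error of this difference was 0.20 on the log2 scale, and differences well above that size also failed to pass. Examples in the edgeR fit are 0.75 near Nr4a3 (SE 0.22, adjusted p = 0.715) and -0.90 inside Nusap1 (SE 0.30, adjusted p = 0.788). The lack of calls thus does not exclude differences larger than the median standard error. Among the peaks with the smallest p were one inside Slc12a8, a transporter gene (1.65 in HOMO and 0.98 in WT), one near Lfng, which encodes a modifier of Notch (-0.82 in HOMO and 0.14 in WT), and one inside Riok3, a kinase gene (0.38 in HOMO and 2.10 in WT).

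**Figure D5:**
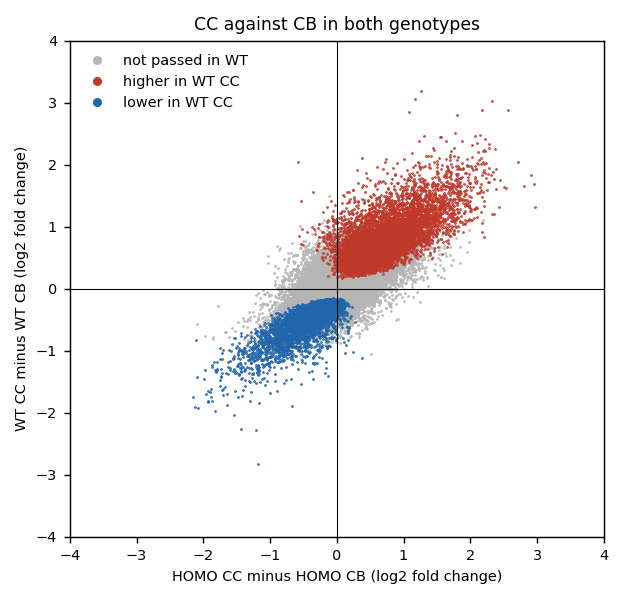
Log2 fold change of CC over CB in HOMO (x axis) and in WT (y axis) for each of 67159 autosomal peaks; red and blue peaks passed in WT as higher and lower, grey did not. Of the coloured peaks, 97.2% have the same sign on both axes.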

How the data were processed

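Omni-ATAC-seq was done on sorted splenic germinal center B cells. The deposited file gives whole-number read counts per peak and library, made by the authors on mm10 per the submitters' processing notes, which list, with no roles, R 4.2.1, BWA, deepTools and FastQC. The peak caller, the counting tool and the treatment of duplicates and of the Tn5 offset were not given in the sources used here. Per peak, WT libraries averaged 181.0, 232.7 and 439.4 counts in CC and 303.1, 128.5 and 460.0 in CB, and counting error adds to the spread between libraries, more in the shallower ones and at weaker peaks.

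Counts were scaled with TMM and fitted with edgeR 4.0.16 (R 4.3.3) over all 12 libraries, with a block for genotype and replicate number (6 blocks) and a CC effect per genotype. This leaves 4 residual degrees of freedom, from both genotypes, with a common biological coefficient of variation of 0.0697. The fit added a median of 65.5 prior degrees of freedom from the spread shared across peaks, so p-values rest mostly on that shared spread. Adjustment ran over all 68689 peaks, and CPM uses TMM factors, log2 CPM a prior count of 2. Each SE given was calculated back from the test, as the absolute log2 fold change divided by the square root of F. Pairing was checked on deviations from group means: same-numbered WT CC and CB libraries correlated at 0.21, 0.22 and 0.51, and HOMO ones at 0.34, 0.22 and 0.44, while differently numbered WT libraries reached 0.13 at most. The blocked fit is the main one because the comparison pairs libraries by number. Alternatives were no block, WT libraries only, DESeq2 size factors, cyclic loess offsets, a filter (CPM of 1 in 3 libraries), DESeq2 1.42.0, limma 3.58.1 voom, an adjusted p under 0.01, and each pair left out.

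Peaks were assigned to the nearest protein-coding gene of RefSeq tables (GRCm38.p6) within 50000 bp, which placed 93.3% of autosomal peaks, and a peak within 1000 bp of a listed start went to that gene. Starts were known for 17274 genes. The members, the 24 gene lists and the naming rule were chosen with earlier results of these data known. The rule took the 10 peaks of smallest p per direction with separate groups and a mean log2 CPM of at least 1, up to 3 peaks per direction and list, gene start or end peaks of set genes, the 6 genes with most calls per direction, and 3 peaks per direction for the difference between genotypes. Some genes that the rule takes are not reported here. Other genes given by counts of peaks, and the printed promoters, were chosen after their values were seen. Python 3.11.15, numpy 2.4.6, pandas 2.3.3, matplotlib 3.10.9 and the data.table package (1.17.8) were used.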

Additional observations from a re-analysis of the deposited data

How the results depend on the processing

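Without the replicate block 3688 peaks passed (2275 higher and 1413 lower in CC). DESeq2 with the block gave 8220 (4148 and 4072), and an adjusted p under 0.01 gave 8350 (4140 and 4210). Cyclic loess offsets gave 5114 lower peaks. Leaving out 1 WT pair gave 8409 to 9881 peaks, 4034 to 4657 higher and 4375 to 5224 lower. For the difference between genotypes loess gave 1 peak and limma voom 3. WT libraries alone, DESeq2 size factors, the filter and, added after seeing the data, leaving out 1 HOMO pair (13681 to 17606 peaks, 6418 to 7985 higher and 7177 to 9621 lower) stayed within 1.5 times the reported count. Of 162 named peaks that passed, 100 stayed past the threshold under every alternative, 126 whichever WT pair was left out, and 0 reversed. Without the block 60 of them no longer passed, under loess 22, with DESeq2 20, and without pair 1, 2 or 3 24, 17 and 16. The cause was not tested, though fewer pairs leave fewer libraries. Depth limits weak peaks most, and small changes there were not detectable.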
